A study of Homo sapiens with 9 samples.

Results

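The mitochondrial DNA of human cells carries 37 genes, and every one of them had a row in the count tables. They were chosen by symbol, as all genes whose symbol begins with MT-, which gave 13 mRNAs, 2 rRNAs and 22 tRNAs out of 60880 gene rows. The RNA came from LNCaP cells, an androgen-sensitive prostate cancer cell line, in 3 groups of 3 libraries. Control cells carry the genotype label Control and the title NT, with no selection drug named. Knockdown cells carry the label UGT2B28 knockdown and the title KD4, which is 1 knockdown line, selected with 3 µg/mL puromycin. Rescue cells carry the label UGT2B28 rescue and the title KD4OE, selected with 1 mg/mL G418. Genotype label, cell line and selection drug change together between groups, so their parts in any difference below cannot be told apart. UGT2B28 is an enzyme that attaches glucuronic acid to androgens. All groups shared the time label of 24 h, and what the 24 h were counted from is not given in the sources used here. The labels do not say whether the 3 libraries of a group came from separate cultures, so a p-value here reflects the spread among these libraries alone, which may be technical.

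Mitochondrial DNA is transcribed from both strands as long precursors, which are cut into single rRNAs, mRNAs and tRNAs, mostly at the tRNAs that lie between the other genes. The heavy-strand transcript holds both rRNAs, most tRNAs and every mRNA except MT-ND6, which comes from the light-strand transcript. The mRNAs encode core subunits of respiratory complexes I, III and IV and of the ATP synthase (complex V), while the remaining subunits, the mitochondrial ribosomal proteins and the transcription and RNA-processing factors come from nuclear genes.

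Several of these genes touch or overlap each other, which bears on how their reads could be counted. MT-ATP8 ends inside MT-ATP6: in the sequence below, from the GENCODE v29 transcripts (build GRCh38), the 46 capital bases at its 3′ end are also the first bases of MT-ATP6. The 6 tRNA genes after it lie on the light strand and are shown because the first 4 received counts and the last 2 received none. Their capitals mark the anticodon.
MT-ATP8: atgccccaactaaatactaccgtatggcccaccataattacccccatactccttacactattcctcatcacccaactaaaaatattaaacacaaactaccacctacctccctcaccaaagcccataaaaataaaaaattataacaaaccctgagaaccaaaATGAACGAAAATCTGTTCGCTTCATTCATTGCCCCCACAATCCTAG
MT-TS1: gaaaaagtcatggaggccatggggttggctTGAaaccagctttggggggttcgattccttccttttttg
MT-TY: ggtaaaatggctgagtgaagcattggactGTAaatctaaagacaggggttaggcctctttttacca
MT-TQ: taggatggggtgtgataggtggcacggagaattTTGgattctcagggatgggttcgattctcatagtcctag
MT-TP: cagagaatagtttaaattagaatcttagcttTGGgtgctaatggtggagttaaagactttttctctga
MT-TN: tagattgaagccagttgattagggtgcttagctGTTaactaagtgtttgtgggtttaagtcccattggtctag
MT-TC: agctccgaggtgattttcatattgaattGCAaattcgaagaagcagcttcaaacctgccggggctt

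Gene counts per library ran from 20300744 to 26459528, and 18389 genes passed the filter on low counts. UGT2B28 itself had 25, 4 and 10 counts in control, 17, 8 and 1 in knockdown and 1124, 1554 and 1857 in rescue. The control and knockdown counts overlapped and were too few to check the knockdown label. The 5 luminal prostate markers reported here, among them KLK3 and KRT8, were detected in every group, and their summed level was 3302 to 3581 CPM (counts scaled to library size) in control libraries, against 5923 to 6387 for knockdown and 6212 to 6869 for rescue. KLK3 alone ranged over 1266 to 1520 CPM among control libraries, 3584 to 3877 among knockdown and 4081 to 4582 among rescue libraries. The other 4 together had 2037 to 2060, 2330 to 2510 and 2132 to 2310, but did not move alike. The mean of HOXB13 was 231 CPM among control libraries, 315 among knockdown and 389 among rescue libraries. FOLH1 had means of 338, 450 and 484 in that order, KRT18 470, 565 and 493, and KRT8 1012, 1063 and 872. The KRT8 range of 827 to 912 among rescue libraries lay below its control range of 998 to 1031. Of the leukocyte and endothelial markers PTPRC, CD3E and PECAM1 had 0 counts in all 9 libraries, CDH5 had 3 in all, and CD68 lay between 2.11 and 3.54 CPM. VWF, an endothelial marker, lay between 1.72 and 2.99 CPM for control, 5.15 and 6.18 for knockdown, and 5.38 and 7.23 for rescue. Of 4 fibroblast markers COL1A1 had 12825 counts in all and the other 3 had 1 or 2 each. COL1A1 lay between 62.0 and 71.8 CPM for control, 42.4 and 52.6 for knockdown, and 57.9 and 70.6 for rescue. Of 3 basal epithelial markers KRT5 had 48 counts in all and TP63 had 5. KRT14, the third, lay between 1.36 and 2.41 CPM for control, 3.20 and 5.20 for knockdown, and 2.79 and 4.34 for rescue. The differences in KLK3, in the other luminal markers, in COL1A1, in KRT14 and in VWF ran alongside the mitochondrial ones below, and their part in them was not tested.

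Mitochondrial RNA took a smaller share of the library in knockdown than in control, and a share between the other groups in rescue. The MT- genes together held 5.68%, 4.64% and 4.82% of gene counts in control replicates 1, 2 and 3, 2.56%, 2.89% and 2.70% in those of knockdown and 3.25%, 3.19% and 3.86% in those of rescue. No library of any group reached into the range of another group. The mean share was 5.05% ± 0.559 (SD, n = 3) in control cells, 2.72% ± 0.166 in knockdown cells and 3.43% ± 0.374 in rescue cells. With 3 libraries against 3, a two-sided exact permutation test cannot go below p = 0.1, and each of the 3 comparisons gave p = 0.1, or 0.142 after Benjamini-Hochberg adjustment over the 138 such tests made on mitochondrial shares, sums and ratios. Control replicate 1 had the highest share of the series, and the other 2 control libraries still lay above every knockdown and rescue library. In bulk RNA, fewer mitochondria or mitochondrial DNA copies per cell and less RNA per copy cannot be told apart.

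The make-up of the mitochondrial counts by class stayed within narrow limits across groups. The mRNAs held 67.5% to 71.2% of mitochondrial counts over the 9 libraries, the rRNAs 27.9% to 31.6% and the tRNAs 0.853% to 0.996%. The number of rRNA counts per mRNA count, as a log2 ratio, was −1.20 ± 0.0515 in control, −1.16 ± 0.0830 in knockdown and −1.34 ± 0.0129 in rescue (SD, n = 3). Control and knockdown overlapped in this ratio (exact permutation p = 0.5, adjusted p = 0.552). All 3 rescue libraries lay below all 6 others, with mean differences of −0.18 from knockdown and −0.14 from control on the log2 scale (exact permutation p = 0.1 for each).

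Both rRNAs fell in knockdown. MT-RNR2 is the rRNA of the large mitochondrial ribosomal subunit, and it had the highest mean level of the MT- genes in each group. It stood at 14448, 12389 and 13068 CPM in control cells, 6920, 8340 and 6991 in knockdown cells and 7997, 7901 and 9319 in rescue cells. Every control library lay above every other library, while knockdown and rescue overlapped. The log2 fold change in knockdown against control was −0.84 ± 0.10 (SE), with an adjusted p of 4.71e-08 in edgeR's quasi-likelihood test. MT-RNR1, the rRNA of the small subunit, stood at 1743, 1530 and 1676 CPM in control cells, 997, 1233 and 917 in knockdown cells and 1106, 1199 and 1365 in rescue cells. In knockdown it fell by 0.65 ± 0.10 on the log2 scale, with an edgeR adjusted p of 7.69e-06. The 2 rRNAs did not keep their proportion: MT-RNR1 made up 11.0% ± 0.304 of rRNA counts in control, 12.4% ± 0.672 in knockdown and 12.7% ± 0.519 in rescue, without overlap between control and the others (exact permutation p = 0.1, adjusted p = 0.142).

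In knockdown against control all 13 mitochondrial mRNAs were called lower, at an edgeR adjusted p under 0.05. Across all tested genes 32.1% were called in this comparison, 15.6% lower and 16.5% higher. The median log2 fold change of the 13 mRNAs was −0.86, beside 0.01 over all 18389 genes. Knockdown levels were 43.9% of control for MT-ATP8 at the low end and 71.5% for MT-ND6 at the high end. No mRNA had a knockdown library inside its control range, but the share of all tested genes separated in this way is not given here. The 13 calls held in every alternative fit and with any library left out.

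**Figure D1:**
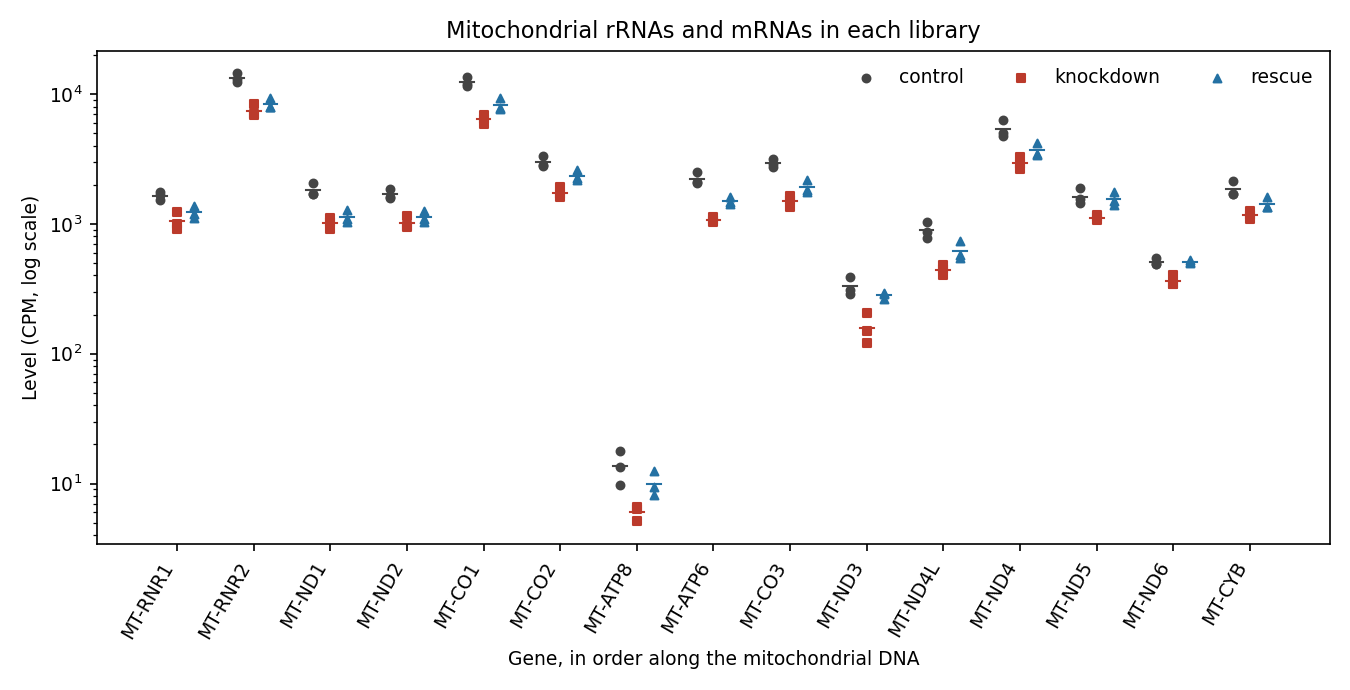
Level of each mitochondrial rRNA and mRNA in CPM (log axis), in gene order along the mitochondrial DNA. Each point is a library, and horizontal lines are group means over 3 libraries. For every gene shown the knockdown libraries lie below the control libraries. The share of all tested genes separated in this way is not given here.

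Summed by complex, the knockdown level was 0.486 of control for complex V, 0.529 for complex IV, 0.578 for complex I and 0.633 for complex III, without overlap between the groups (exact permutation p = 0.1 for each). MT-ATP6 encodes subunit a, which forms part of the proton channel of the ATP synthase. It stood at 2523, 2086 and 2043 CPM in control cells, 1026, 1132 and 1073 in knockdown cells and 1466, 1423 and 1595 in rescue cells, so that the 3 groups formed separate ranges. In knockdown it fell by 1.04 ± 0.09 on the log2 scale (edgeR adjusted p = 9.57e-11). MT-ATP8, a small subunit of the same enzyme read from a shared mRNA with MT-ATP6, had far lower values: 17.9, 9.74 and 13.4 CPM in control cells, 6.33, 6.56 and 5.11 in knockdown cells and 8.19, 9.35 and 12.5 in rescue cells. It fell by 1.19 ± 0.20 on the log2 scale in knockdown (edgeR adjusted p = 3.66e-05). For every 100 counts of MT-ATP6 there were 0.467 to 0.782 counts of MT-ATP8, with no separation between groups. The MT-ATP8 gene is 207 bases long with 46 of them shared, and counts that touched more than 1 gene were set apart as ambiguous, 2.26% to 2.67% of each library's reads. How far this lowered MT-ATP8 was not tested.

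Complex IV, cytochrome c oxidase, takes its 3 catalytic core subunits from mitochondrial DNA, and all of them fell. MT-CO1, the subunit that binds the oxygen-reducing haem, was the mRNA with the most counts. It stood at 13587, 11431 and 11901 CPM in control cells, 5848, 6863 and 6444 in knockdown cells and 7843, 7629 and 9259 in rescue cells. The 3 ranges were separate, and the log2 fold change in knockdown was −0.95 ± 0.09 (edgeR adjusted p = 5.13e-09). MT-CO2, which takes electrons from cytochrome c, had 3313, 2814 and 2775 CPM in control cells, 1608, 1911 and 1681 in knockdown cells and 2156, 2250 and 2591 in rescue cells. It fell by 0.78 ± 0.09 on the log2 scale, to 58.4% of control. MT-CO3 had 3158, 2715 and 2885 CPM in control cells, 1348, 1631 and 1533 in knockdown cells and 1770, 1812 and 2185 in rescue cells, a log2 fold change of −0.96 ± 0.09 in knockdown.

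MT-CYB, cytochrome b, is the only complex III subunit encoded in mitochondria. It had 2129, 1682 and 1705 CPM in control cells, 1080, 1244 and 1167 in knockdown cells and 1344, 1346 and 1604 in rescue cells. Its log2 difference in knockdown, −0.66 ± 0.09 (edgeR adjusted p = 2.46e-06), lay nearer to 0 than those of the complex IV and V mRNAs. Within the mitochondrial mRNA counts its share was 5.33% ± 0.161 in control and 6.16% ± 0.0721 in knockdown, with no overlap (exact permutation p = 0.1).

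The 7 complex I mRNAs covered the widest span. They encode subunits of the arm of the complex that lies in the inner membrane and pumps protons. MT-ND4 had 6298, 4720 and 4972 CPM in control cells, 2658, 3263 and 2863 in knockdown cells and 3391, 3459 and 4202 in rescue cells, and fell by 0.86 ± 0.11 on the log2 scale in knockdown. MT-ND4L had 1026, 781 and 866 CPM in control cells, 402, 448 and 479 in knockdown cells and 579, 550 and 734 in rescue cells, and fell by 1.01 ± 0.11. These 2 genes share an overlap of 7 bases. MT-ND3 had the widest error among the complex I mRNAs, with 287, 392 and 310 CPM in control cells, 122, 150 and 206 in knockdown cells and 289, 291 and 265 in rescue cells. Its log2 fold change of −1.05 ± 0.20 had an edgeR adjusted p of 0.00549.

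MT-ND1 and MT-ND2, the mRNAs that follow the rRNAs on the heavy-strand transcript, fell in knockdown by 0.84 ± 0.09 and 0.74 ± 0.09 on the log2 scale. MT-ND1 had 2045, 1706 and 1694 CPM in control cells, 905, 1114 and 1025 in knockdown cells and 1029, 1097 and 1287 in rescue cells. MT-ND2 had 1858, 1613 and 1586 CPM in control cells, 961, 1140 and 938 in knockdown cells and 1033, 1081 and 1256 in rescue cells. In both genes the rescue libraries overlapped the knockdown libraries and none reached the control range.

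MT-ND5 and MT-ND6, which lie next to each other on opposite strands, had the smallest decreases of the 13 mRNAs. MT-ND5 had 1873, 1443 and 1551 CPM in control cells, 1062, 1169 and 1120 in knockdown cells and 1509, 1389 and 1755 in rescue cells. Its log2 fold change in knockdown was −0.54 ± 0.09 (edgeR adjusted p = 5.27e-05), and rescue and control overlapped. MT-ND6 had 550, 488 and 493 CPM in control cells, 346, 402 and 346 in knockdown cells and 501, 504 and 527 in rescue cells. It fell by 0.48 ± 0.08 in knockdown (edgeR adjusted p = 1.24e-05), and its rescue libraries lay inside the control range.

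**Figure D2:**
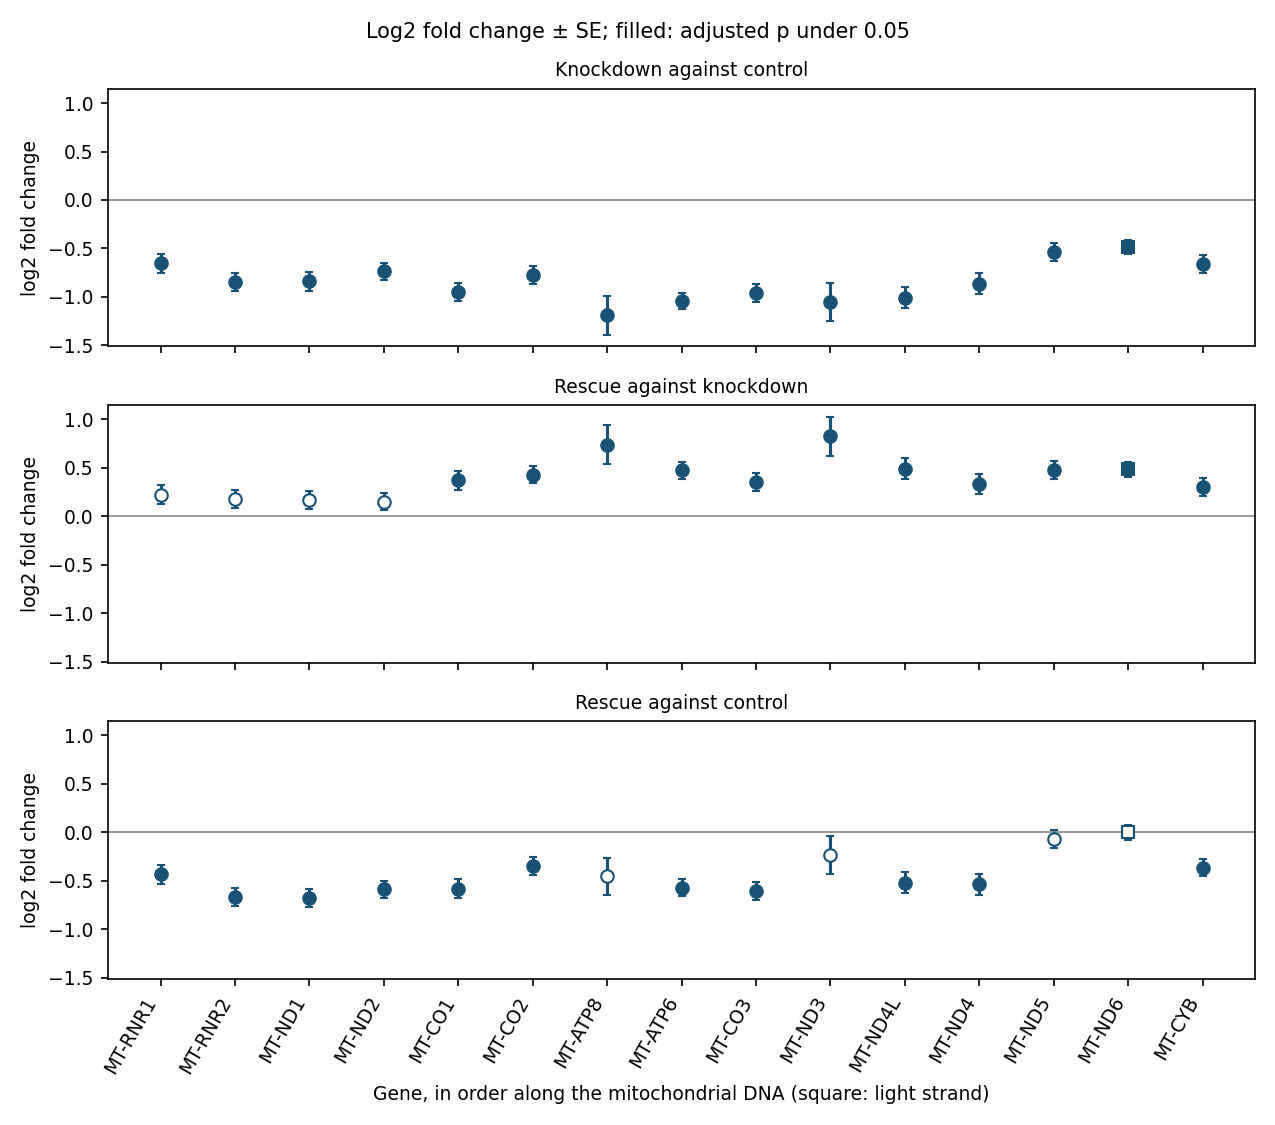
Log2 fold change ± SE of each mitochondrial rRNA and mRNA in the 3 comparisons, from edgeR's fit to all 9 libraries. Filled symbols passed an adjusted p of 0.05, the square is the light-strand gene MT-ND6, and all 15 symbols are filled in knockdown against control.

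The unequal decreases show in the composition of the mRNA pool, which does not depend on scaling between libraries. MT-ND5 made up 4.70% ± 0.161 of mitochondrial mRNA counts in control, 5.92% ± 0.203 in knockdown and 6.37% ± 0.258 in rescue (SD, n = 3). MT-ND6 made up 1.49% ± 0.0570, 1.93% ± 0.0838 and 2.11% ± 0.152. For both genes the control libraries lay below all others, and knockdown and rescue overlapped. In the other direction, MT-CO1 held 35.8% ± 0.580 of the pool in control cells, 33.8% ± 0.322 in knockdown cells and 33.9% ± 0.418 in rescue cells, and MT-ATP6 held 6.43% ± 0.175, 5.71% ± 0.188 and 6.16% ± 0.282. Each control-knockdown difference named here separated the groups fully, at an exact permutation p of 0.1 (adjusted p = 0.142). MT-ND4 took 15.4% ± 0.774 in control and 15.5% ± 0.414 in knockdown, a difference within the spread (exact permutation p = 0.8).

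By complex, the complex IV mRNAs made up 52.9% ± 0.880 of mitochondrial mRNA counts in control, 50.9% ± 0.249 in knockdown and 51.3% ± 0.138 in rescue. Complex I mRNAs had the opposite order, at 35.3% ± 0.621, 37.2% ± 0.299 and 36.6% ± 0.215. Complex V mRNAs held 6.47% ± 0.173 in control, 5.74% ± 0.191 in knockdown and 6.20% ± 0.277 in rescue. All 3 complexes separated control from knockdown (exact permutation p = 0.1), and for complex V the rescue libraries overlapped both other groups. The largest of these control-knockdown shifts was −1.99 percentage points, for complex IV, while the whole mRNA pool went from 3.49% to 1.86% of gene counts.

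**Figure D3:**
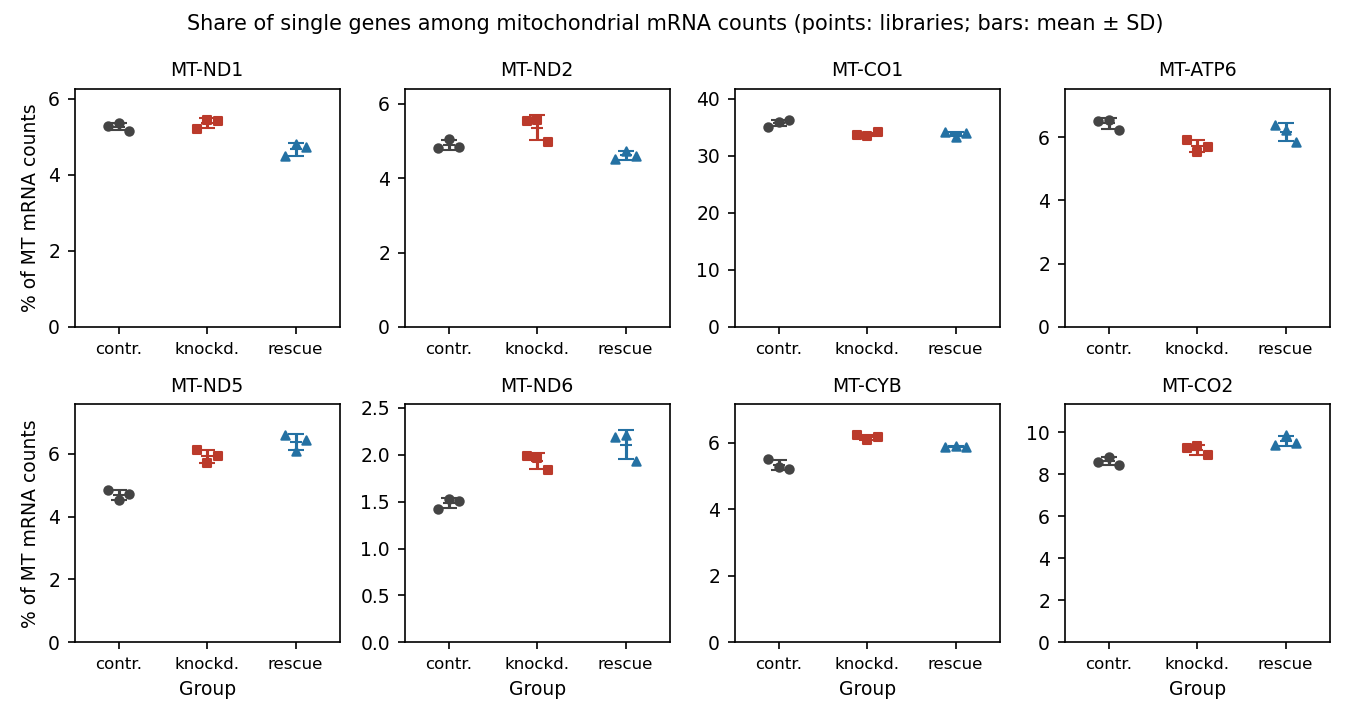
Share of 8 mRNAs among mitochondrial mRNA counts in percent, with points for libraries and bars for mean ± SD over 3 libraries. MT-ND5 and MT-ND6 lie lowest in control, MT-CO1 lies highest in control, and MT-ND1 and MT-ND2 lie lowest in rescue.

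MT-ND6 can be set against the heavy-strand mRNAs within each library. The log2 ratio of its counts to the sum of the 12 heavy-strand mRNAs was −6.05 ± 0.0567 in control, −5.67 ± 0.0646 in knockdown and −5.54 ± 0.108 in rescue. Control was separate from both other groups (exact permutation p = 0.1, adjusted p = 0.142), with differences of 0.38 and 0.51, while knockdown and rescue overlapped (exact permutation p = 0.3). Leaving out the overlapping gene pairs from the denominator gave differences of 0.37 and 0.50. Whether the MT-ND6 counts came from the light-strand transcript is not settled by these files. Among 150 nuclear genes of at least 200 bases that lie wholly inside exons of an opposite-strand gene with 10000 counts or more, 149 had counts, and the median count per base was 1.57 times that of the host gene. The quartiles of this ratio were 0.791 and 2.275, but some pairs lay far lower, with 0.0056 for a gene inside MALAT1. Reads from a gene and from its antisense partner therefore cannot be reliably told apart here. MT-ND6 lies opposite the 598 bases between MT-ND5 and MT-CYB, and its row may hold reads from either strand.

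In rescue against knockdown most mRNAs were called higher, and neither rRNA was called although both had higher means. Of the 13 mRNAs 11 were called higher and 0 lower. Across all tested genes 10.1% were called in this comparison, 5.20% higher and 4.88% lower. Because the knockdown libraries enter this comparison and the previous one, their fold changes are not independent. The median log2 fold change of the 13 mRNAs was 0.43 here, beside −0.0048 over all genes. The exceptions were MT-ND1 and MT-ND2, at 0.17 ± 0.09 and 0.15 ± 0.09 (edgeR adjusted p = 0.308 and 0.344). MT-RNR1 and MT-RNR2 had log2 fold changes of 0.22 ± 0.10 and 0.18 ± 0.09 (edgeR adjusted p = 0.159 and 0.26). DESeq2 and limma voom called neither rRNA, and at an unadjusted p under 0.05 edgeR had MT-RNR1 alone and the other tools both. The 4 mRNA and rRNA genes without a call are the first 4 rRNA and mRNA genes along the heavy-strand transcript.

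The size of the difference varied among the 11. MT-ND3 was 0.82 ± 0.20 higher on the log2 scale (edgeR adjusted p = 0.0432) and MT-ATP8 0.74 ± 0.20 higher (0.0171), the widest errors in the set. MT-ND4L, MT-ND6, MT-ND5 and MT-ATP6 were higher by 0.49 ± 0.11, 0.49 ± 0.08, 0.47 ± 0.09 and 0.47 ± 0.08. The complex IV mRNAs were closer together, with 0.43 ± 0.09 for MT-CO2, 0.37 ± 0.09 for MT-CO1 and 0.35 ± 0.09 for MT-CO3. MT-ND4 and MT-CYB were higher by 0.33 ± 0.11 and 0.30 ± 0.09 (edgeR adjusted p = 0.049 and 0.0368). In the mRNA pool MT-ND1 went from 5.36% ± 0.131 in knockdown to 4.67% ± 0.162 in rescue and MT-ND2 from 5.36% ± 0.337 to 4.62% ± 0.113, without overlap (exact permutation p = 0.1, adjusted p = 0.142).

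Part of these calls was lost when single libraries were left out, and why was not tested. Over all genes 1854 were called with every library, 1473 without knockdown replicate 1 and 1258 without rescue replicate 3. The count of mRNAs called higher was 5 without rescue replicate 3, which had the highest mitochondrial share of its group, and 7 without knockdown replicate 1, which had the lowest. MT-CO2, MT-ATP6, MT-ND4L, MT-ND5 and MT-ND6 kept their call in all 14 alternatives. MT-CO1 and MT-CO3 lost it when either of these 2 libraries was left out, MT-ATP8 without rescue replicate 3 or knockdown replicate 3, and MT-CYB, MT-ND3 and MT-ND4 in 4 to 7 alternatives each. MT-RNR1 was called higher without knockdown replicate 2 (0.36 ± 0.09, edgeR adjusted p = 0.0135). None of these genes turned its direction.

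Rescue cells did not hold most mitochondrial RNAs at the control level. In rescue against control 9 of 13 mRNAs were called lower and 0 higher, and both rRNAs were called lower. Across all tested genes 37.8% were called, 18.8% lower and 19.0% higher. The median log2 fold change of the mRNAs was −0.52, beside −0.0025 over all genes. Rescue levels were 62.7% of control for MT-ND1, 63.2% for MT-RNR2, 65.9% for MT-CO3, 66.6% for MT-ND2, 67.0% for MT-CO1 and 67.4% for MT-ATP6. They were 69.1% for MT-ND4, 69.7% for MT-ND4L, 74.1% for MT-RNR1, 77.8% for MT-CYB and 78.6% for MT-CO2. The largest of these differences was −0.67 ± 0.09 on the log2 scale for MT-ND1 (edgeR adjusted p = 1.87e-06), and the 9 mRNA calls held in every alternative fit.

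The 4 mRNAs without a call in this comparison were MT-ND3, MT-ND5, MT-ND6 and MT-ATP8. MT-ND6 stood at 100.1% of control (log2 fold change 0.0014 ± 0.08, edgeR adjusted p = 0.991) and MT-ND5 at 95.6% (−0.06 ± 0.09, adjusted p = 0.631). MT-ND3 stood at 85.4% of control (−0.23 ± 0.20, edgeR adjusted p = 0.424). MT-ATP8 stood at 73.1% (−0.45 ± 0.19, edgeR adjusted p = 0.0657), and was called lower without control replicate 2, without rescue replicate 3 or without the filter on low counts. A missing call does not show equal levels, and the errors of MT-ND3 and MT-ATP8 were more than 2 times those of MT-ND5 and MT-ND6.

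Per kilobase of gene, which adjusts for gene length alone, MT-RNR2 and MT-CO1 led in all 3 groups. The library kit, which is not given, reads from the opposite strand and ambiguous reads may also bear on this order, which was not tested. In control they had 8532 ± 673 and 7981 ± 735 CPM per kb (SD, n = 3), and their ranges overlapped. MT-CO2, MT-ND4, MT-CO3, MT-ATP6 and MT-ND4L followed, from 4338 ± 439 down to 2999 ± 419, each overlapping the next. A lower tier held MT-ND1, MT-RNR1, MT-ND2 and MT-CYB, from 1899 ± 208 to 1612 ± 221, again with overlapping neighbours. MT-ND6, MT-ND3 and MT-ND5 overlapped each other at 972 ± 65.0, 953 ± 158 and 895 ± 123, and MT-ATP8 was last at 66.1 ± 19.8. MT-RNR1 was thus far below MT-RNR2, although both rRNAs lie next to each other on the same transcript. Knockdown and rescue kept the first 7 places in this order, and MT-ATP8 was last in all 3. In both groups MT-RNR1 passed MT-ND1, MT-CYB passed MT-ND2 and MT-ND5 passed MT-ND3, and in rescue MT-CYB also stood above MT-ND1.

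Neither position nor length on the molecule ordered the fold changes in the same way across comparisons. Over the 12 heavy-strand mRNAs, Spearman's rho between order along the molecule and log2 fold change was 0.133 for knockdown against control, 0.294 for rescue against knockdown and 0.608 for rescue against control. With gene length it was 0.769, −0.559 and −0.0699 in the same order. Longer mRNAs such as MT-ND5 had smaller decreases in knockdown, and short ones such as MT-ATP8, MT-ND4L and MT-ND3 larger ones. These coefficients describe 12 genes that share libraries and a transcript, and are given without a test.

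Counts in the tRNA genes were sparse and uneven. Of the 22 tRNA genes 13 had 0 counts in all 9 libraries, which allows a level of up to 0.113 to 0.148 CPM per library, counting error only. MT-TF had 4 counts in all, and 8 genes passed the filter on low counts. The highest were MT-TS1, with 53017 counts over the 9 libraries, MT-TP with 8779, MT-TY with 7918 and MT-TQ with 1976, while MT-TE, MT-TT, MT-TA and MT-TW had 651, 352, 158 and 106. By strand, 6 of 8 light-strand and 3 of 14 heavy-strand tRNA genes had counts. The tRNA gene sequences shown above are 66 to 73 bases long, and whether the library kit retained RNA of about that size is not given in the sources used here.

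The tRNA genes with counts were those with free space beside them. All 9 had more than 100 bases without another gene of their own strand on at least 1 side, and all 13 genes at 0 had a same-strand gene within 100 bases on both sides, a limit chosen after the counts were seen. MT-TN and MT-TC, whose sequences are printed above, sit between MT-TA and MT-TY on the light strand and had 0 counts. MT-TS1 lies opposite the 72 bases between MT-CO1 and MT-TD, and its level per kilobase in control was 4799 ± 204 CPM per kb, beside 4338 ± 439 for MT-CO2. Reads from the opposite strand cannot be reliably told apart in these rows, as for MT-ND6, so the values below are those of the tRNA gene rows and not of mature tRNA.

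**Figure D4:**
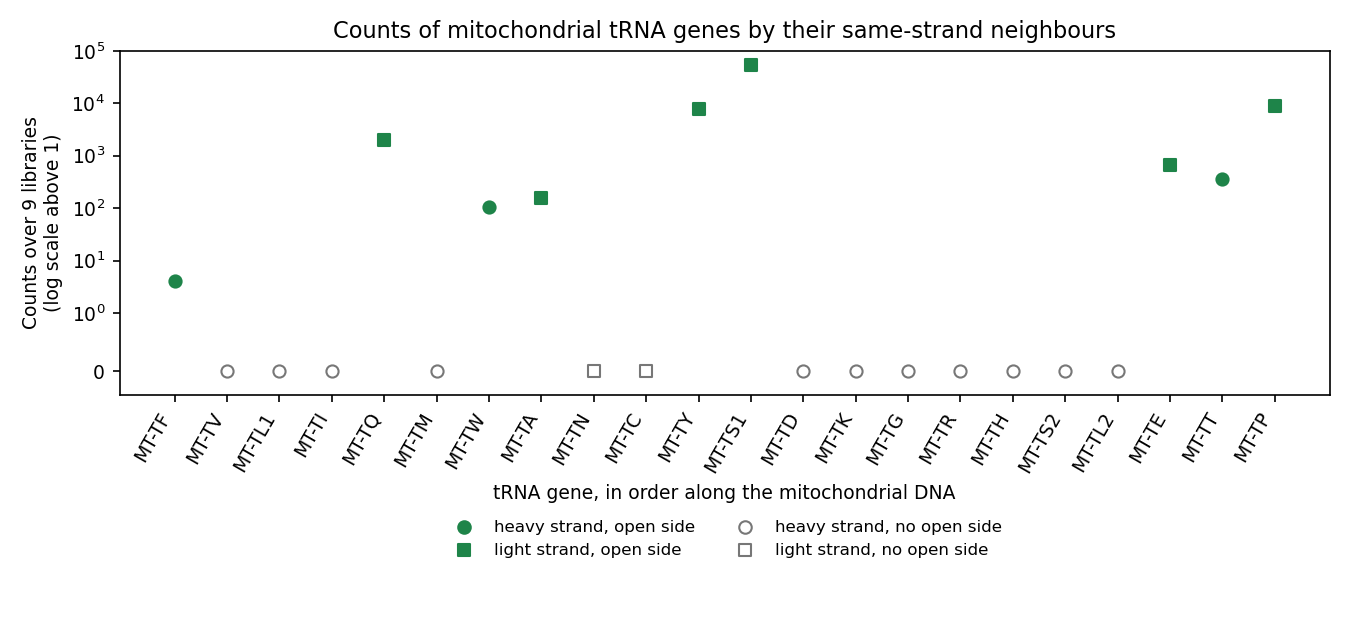
Summed counts over 9 libraries of the 22 mitochondrial tRNA genes (log axis above 1), in gene order. Filled symbols are genes with over 100 bases free of same-strand genes on at least 1 side, and the 13 open symbols all lie at 0.

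The 4 tRNA genes with the most counts fell in knockdown along with the mRNAs, and the 4 with the fewest were not called. MT-TS1, which decodes serine, had 341, 337 and 315 CPM in control cells, 167, 193 and 189 in knockdown cells and 215, 236 and 239 in rescue cells, so that the 3 groups were separate. It fell by 0.86 ± 0.07 on the log2 scale in knockdown (edgeR adjusted p = 2.63e-10). It was 0.33 ± 0.07 higher in rescue than in knockdown (edgeR adjusted p = 0.00316), the only tRNA row called there. Its counts per 100 counts of MT-CO1 lay between 2.51 and 3.09 in all libraries, with overlapping groups.

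MT-TY, for tyrosine, had 57.6, 51.4 and 56.4 CPM in control cells, 24.9, 28.3 and 28.0 in knockdown cells and 25.4, 29.4 and 31.6 in rescue cells. It fell by 1.03 ± 0.10 on the log2 scale in knockdown (edgeR adjusted p = 4.01e-09). Rescue overlapped knockdown and was lower than control by a log2 fold change of −0.93 ± 0.10 (edgeR adjusted p = 1.65e-08). Per 100 counts of MT-CO1, MT-TY had 0.449 ± 0.0250 in control, 0.424 ± 0.0110 in knockdown and 0.350 ± 0.0318 in rescue, with rescue below both other groups (exact permutation p = 0.1, adjusted p = 0.142). MT-TP, for proline, had 58.7, 54.7 and 55.3 CPM in control cells, 29.9, 37.4 and 27.2 in knockdown cells and 28.5, 35.3 and 40.8 in rescue cells. It fell by 0.84 ± 0.12 in knockdown and was lower in rescue than in control by a log2 fold change of −0.69 ± 0.12.

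MT-TQ, for glutamine, had 12.8, 13.1 and 9.90 CPM in control cells, 6.44, 7.57 and 7.04 in knockdown cells and 8.38, 10.1 and 7.83 in rescue cells. It fell by 0.77 ± 0.17 in knockdown (edgeR adjusted p = 0.000619). In rescue against control it was called lower at −0.45 ± 0.16 (edgeR adjusted p = 0.031), with overlapping groups, and the call was lost without control replicate 1 or 2 or without rescue replicate 1 or 3. MT-TE, for glutamate, had 2.28 ± 0.323 CPM in control cells, 3.30 ± 0.964 in knockdown cells and 3.57 ± 0.143 in rescue cells. Its log2 fold change of 0.53 ± 0.27 in knockdown had the opposite sign to the abundant rows but an edgeR adjusted p of 0.144. MT-TT, MT-TA and MT-TW lay between 0.472 and 1.79 CPM on average in every group, and none was called in any comparison.

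The nuclear-encoded partners of the mitochondrial mRNAs did not share their decrease. Of 71 nuclear-encoded subunit genes of complexes I, III, IV and V, 18 were called higher and 0 lower in knockdown against control, with a median log2 fold change of 0.22 beside −0.86 for the 13 mitochondrial mRNAs. That is 25.4% higher, where 16.5% of all tested genes were called higher and 15.6% lower. ATP5MG, a membrane subunit of complex V, went from 11.3 ± 2.64 to 17.5 ± 1.95 CPM, a log2 fold change of 0.63 ± 0.15 (edgeR adjusted p = 0.00145). COX6A1 of complex IV rose by 0.56 ± 0.15 and NDUFA5 of complex I by 0.47 ± 0.08. All 4 complex II genes are nuclear, and of these SDHB rose by 0.31 ± 0.09 (edgeR adjusted p = 0.0116) and the other 3 were not called. None of the 71 was lower in knockdown with DESeq2 or limma voom either, nor at an unadjusted p under 0.05. In rescue against knockdown edgeR called 0 of the 71 genes higher and 2 lower (2.82%). Of all tested genes 5.20% were called higher and 4.88% lower. At an unadjusted edgeR p under 0.05, 3 of the 71 were higher and 8 lower. DESeq2 called 1 of them higher and 2 lower, and limma voom 0 higher and 1 lower. In rescue against control 18 were higher (25.4%) and 4 lower (5.63%), where 19.0% of all tested genes were called higher and 18.8% lower.

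**Figure D5:**
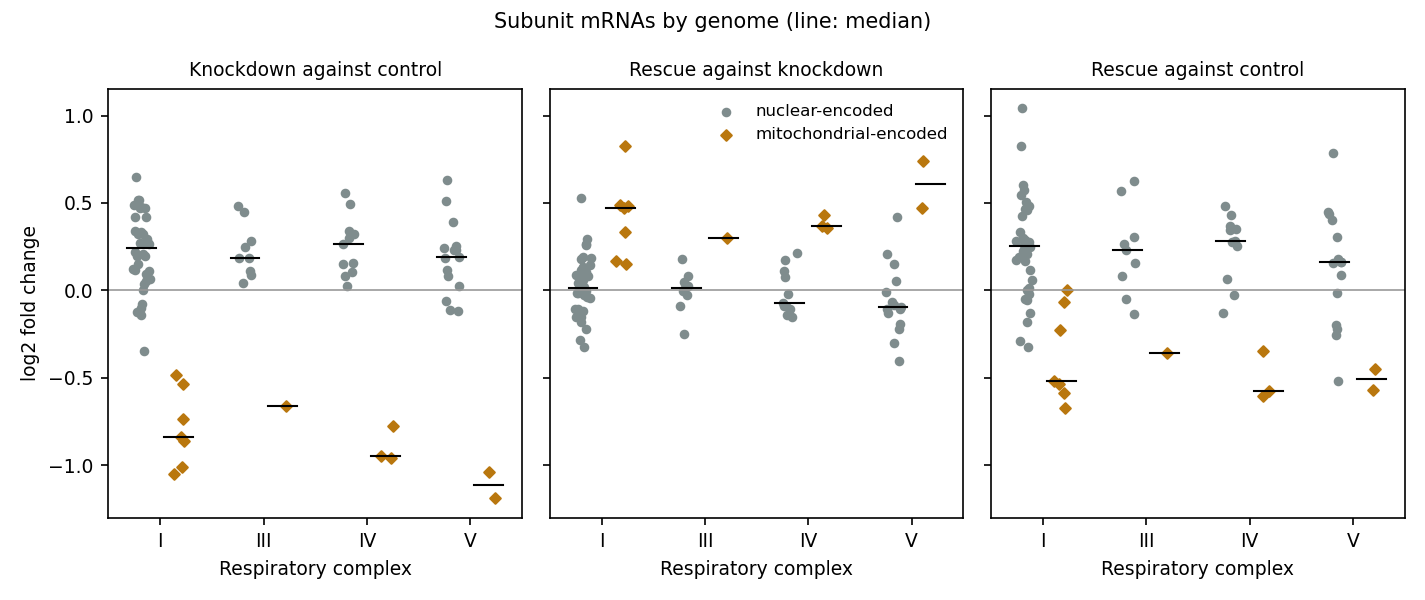
Log2 fold change of nuclear-encoded (grey circles) and mitochondrially encoded (orange diamonds) subunit mRNAs by respiratory complex in the 3 comparisons, with lines at the medians. In knockdown against control every diamond lies below 0, and the median circle of each complex lies above 0.

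Nuclear genes for mitochondrial ribosomal proteins, which join the 2 rRNAs in the mitochondrial ribosome, did not fall with the rRNAs as a group. Of 77 such genes 24 were called higher and 1 lower in knockdown against control, with a median log2 fold change of 0.19. That is 31.2% higher and 1.30% lower, where 16.5% and 15.6% of all tested genes were called. MRPS18A went from 18.2 ± 1.52 to 30.1 ± 0.684 CPM (log2 fold change 0.73 ± 0.11, edgeR adjusted p = 3.64e-06) and MRPL10 from 72.1 ± 4.85 to 102.5 ± 4.13 CPM. In rescue against knockdown 2 of the 77 were higher (2.60%) and 4 lower (5.19%), where 5.20% and 4.88% of all tested genes were called.

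Of 15 genes for factors that copy and transcribe mitochondrial DNA, 2 were higher and 2 lower in knockdown against control, with a median log2 fold change of 0.07. That is 13.3% each way, near the 16.5% higher and 15.6% lower among all tested genes. TFAM, which packages mitochondrial DNA and starts transcription, went from 52.4 ± 2.75 to 64.5 ± 6.80 CPM (log2 fold change 0.30 ± 0.09, edgeR adjusted p = 0.0111) and was at 55.8 ± 3.54 in rescue. SSBP1, the mitochondrial single-stranded DNA-binding protein, rose by 0.25 ± 0.10 (edgeR adjusted p = 0.0451), but was not called with DESeq2 (adjusted p = 0.0543). MTERF4, which takes part in mitochondrial ribosome assembly, fell by 0.47 ± 0.10 in knockdown, and TOP1MT, the mitochondrial topoisomerase, fell by 0.33 ± 0.10. TOP1MT was lower still in rescue than in knockdown (log2 fold change −0.42 ± 0.10, edgeR adjusted p = 0.00782), with 24.8 ± 1.91 CPM in rescue against 41.6 ± 0.992 in control.

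Of 28 genes for mitochondrial RNA processing and stability, 6 were higher and 0 lower in knockdown against control, with a median log2 fold change of 0.11. The 21.4% called higher lay close to the 16.5% of all tested genes, and 15.6% of all tested genes were called lower. None of the 28 was lower with DESeq2 or limma voom, nor at an unadjusted edgeR p under 0.05. HSD17B10, a subunit of the mitochondrial RNase P that cuts the 5′ ends of tRNAs, went from 21.0 ± 3.59 to 34.7 ± 3.28 CPM and was at 31.0 ± 4.22 in rescue. Its log2 fold change in knockdown was 0.72 ± 0.12 (edgeR adjusted p = 4.51e-05). PNPT1, the polynucleotide phosphorylase that degrades mitochondrial RNA, rose by 0.53 ± 0.12, and PTCD2 and FASTKD5, which act in processing of mitochondrial mRNAs, rose by 0.53 ± 0.13 and 0.46 ± 0.13. In rescue against knockdown edgeR, DESeq2 and limma voom each called 0 of the 28, with 1 higher and 4 lower at an unadjusted p under 0.05. Of all tested genes edgeR called 5.20% higher and 4.88% lower there. In rescue against control 7 of the 28 were higher (25%) and 1 lower (3.57%), beside 19.0% and 18.8% of all tested genes.

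The nuclear genome holds copies of mitochondrial genes, whose reads can be hard to separate from those of the originals. Of 416 copies with a row, 6 passed the filter, and together the copies held 0.0260% to 0.0630% of gene counts. MTCO1P12, a copy of MT-CO1, was the most abundant with 566 ± 25.7 CPM in control cells, 287 ± 34.8 in knockdown cells and 379 ± 33.5 in rescue cells. Its log2 fold changes of −0.98 ± 0.08, 0.40 ± 0.08 and −0.58 ± 0.08 lay beside −0.95, 0.37 and −0.58 for MT-CO1 in the same 3 comparisons. Of the 6 copies, 2 were called lower in knockdown against control (33.3%) and 1 higher in rescue against knockdown (16.7%). Among all tested genes these shares were 15.6% and 5.20%. How the counting divided reads between MT-CO1 and this copy is not given in the sources used here, so the values of both carry that uncertainty.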

How the data were processed

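The deposited values are whole-number read counts per gene in 9 libraries, made by the authors with FastQC, cutadapt, HISAT2 and HTSeq on build hg19, per the submitters' processing notes. The sources used here name no versions, library kit or strand setting. Ensembl gene identifiers were matched without version to symbols (56414 of 60880 rows, and 444 more through GENCODE v29). The summary rows of HTSeq were not counted in library sizes. Reads in no feature were 48.8% to 50.7% of each library, ambiguous reads 2.26% to 2.67% and reads aligned to several places 5.26% to 7.62%. Gene lengths and neighbours come from GENCODE v29 on GRCh38, so no coordinates are given.

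Counts were tested with edgeR 4.0.16 in R 4.3.3 (filterByExpr with a minimum count of 10, TMM scaling, robust quasi-likelihood fit of 1 mean per group over all 9 libraries, 6 residual degrees of freedom). P-values were adjusted by Benjamini-Hochberg over all 18389 tested genes, and a gene was called at an adjusted p under 0.05. CPM are TMM-scaled, and an SE is the fold change divided by the root of the F statistic. Single values per library were compared by two-sided exact permutation tests. No 2 libraries were identical. Fits were tested on simulated data. Alternatives were RLE scaling, library totals, scaling without MT- genes, no filter, DESeq2 1.42.0, limma voom 3.58.1, 2 groups only, a replicate block and leaving out each library.

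All 37 genes are members and all are accounted for. Up to 4 genes of each nuclear list were named by the smallest adjusted p in knockdown against control. The members and the lists were chosen with earlier results of these data known. Some markers of the luminal list are not reported here.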

Additional observations from a re-analysis of the deposited data

How the results depend on the processing

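All 13 mRNA, 2 rRNA and 4 tRNA calls of knockdown against control, and the 9 mRNA and 2 rRNA calls of rescue against control, kept their direction and side of the threshold in every alternative. Over the 46 single-gene calls, 26 of 644 values under an alternative lost the call and 0 changed sign, and over the 23 single-gene results not called, 5 of 322 values gained a call and 18 changed sign. For rescue against knockdown, the mRNAs called numbered 5 to 10 when single libraries were left out (7 without knockdown replicate 1, 5 without rescue replicate 3). The rRNAs called there numbered 0 to 1 in the same way, with 1 without knockdown replicate 2, and 1 when no filter on low counts was applied. The cause of these changes was not tested. Deviations of same-numbered libraries had correlations of −0.037 to 0.077, and those of differently numbered libraries −0.089 to 0.077. The labels do not say whether same-numbered libraries were handled together. A replicate block left 9 mRNAs called in rescue against knockdown where the fit without it called 11. Over all genes the block called 2319 in that comparison, beside 1854, and 6348 in knockdown against control, beside 5899. Over all genes, 1196 were called in rescue against knockdown without rescue replicate 1, beside 1854 with it. With 3 libraries a group, permutation tests cannot pass 0.05, and the 4 uncalled tRNA rows had standard errors of 0.27 to 0.68 on the log2 scale in knockdown against control.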
